A study of Oryza sativa Indica Group with 9 samples.

Results

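The small RNA of unheated rice leaf is described here from the 2 libraries of the 0 h group, replicates 1 and 3, out of 6 small RNA libraries and 9 samples in all. The members are all distinct miRNA sequences in the deposited list, each used once, with its level in reads per 1000000 listed reads (RPM). There are 483 such sequences, of which 482 had a read at 0 h, and they fall into 132 families by the number after "miR" in their names, all with reads at 0 h. The plants were seedlings of HT54, a rice line of the Indica Group, and leaf was taken at the three-leaf stage. Seedlings had grown in a chamber at 25 °C under a 13-h light and 11-h dark cycle, and then in Yoshida culture solution. The unheated group had 0 h at 45 °C, and the heated groups 12 or 24 h at 45 °C, with 2 small RNA libraries each. All 3 groups share the line, stage and culture, and no unheated leaf of 12 or 24 h is among the samples, so heat and elapsed time cannot be told apart. Besides, 1 library per time point holds the degradome, that is, the 5′ ends of cut polyadenylated RNA. The labels call the samples of a time point independent, and 1 small RNA library per time point was left out by the submitters.

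Plant miRNAs are cut from the stem of a hairpin precursor by a Dicer-like enzyme, which releases a duplex of the 5′ and the 3′ arm. One strand is kept by an Argonaute protein and guides the cutting or silencing of transcripts that pair with most of its length, while the other strand is mostly lost. In leaves these small RNAs are known for the control of transcription factors of growth and phase change, of copper proteins and of the small RNA machinery itself. IsomiRs are variants of a mature miRNA with shifted ends or changed bases. In the deposited names, L and R give bases added to or missing from the left (5′) and right (3′) end of the database entry, and ss marks a substitution.

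The most abundant sequence of each of the 10 highest families at 0 h is shown first, because these 10 sequences carry much of the profile. They were copied from the deposited tables, which write T for U. Capitals mark bases 2 to 8 from the 5′ end, the seed.
ppt-miR894_R+1: cGTTTCACgtcgggttcacca
gma-miR6300_R+7: gTCGTTGTagtatagtggtgagtat
osa-miR156a_L+1: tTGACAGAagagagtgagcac
osa-miR396e-5p: tCCACAGGctttcttgaactg
osa-miR168a-3p: gATCCCGCcttgcaccaagtgaat
osa-miR166a-3p: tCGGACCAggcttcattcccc
tae-miR9774_L+2R-1_1ss22GT: aGCAAGATattgggtatttcttt
ptc-miR6478_1ss21GA: cCGACCTTagctcagttggta
osa-miR444f_1ss12CT: tGCAGTTGttgtctcaagctt
osa-miR162a: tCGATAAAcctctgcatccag
No seed is shared between these 10 sequences. Over the sequences that carry a family number in their names, 300 different seeds occurred. Of these, 253 occurred in a single sequence, and 8 were shared by sequences of different families.

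The precursor positions below are those of the deposited tables, for which the sources used here name no genome build. osa-miR168a-3p and osa-miR162a have 1 listed precursor each, on chromosome 2 from 1553146 to 1553246 (minus strand) and on chromosome 2 from 23605799 to 23605969 (plus strand). osa-miR396e-5p is listed at 2 positions, the first on chromosome 2 from 35636546 to 35636721 (minus strand). For osa-miR166a-3p there are 6 positions, the first on chromosome 10 from 14483290 to 14483396 (minus strand). ppt-miR894_R+1 has no listed position. Whether a precursor lies in an exon, an intron or between genes was not analysed here.

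The listed reads summed to 33623 and 102513 at 0 h (replicates 1 and 3), against 10314 to 227965 in the heated libraries. These are sums over the miRNA list, since the sources used here hold no library totals. A level at the floor of 3 reads was 89.2 and 29.3 RPM in the unheated libraries, so the 251 sequences of replicate 1 and the 105 of replicate 3 with under 10 reads are known only coarsely. In 12 h replicate 3, the heated library with 10314 listed reads, this floor was 291 RPM. No list of small RNAs that mark leaf was used, so the tissue label was not checked against the data. All intervals and floors cover counting error only, since the reads carry no molecular identifiers.

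A few families held most of the reads in unheated leaf. The 5 highest families held 45.9% and 45.8% of the listed reads (replicates 1 and 3), the 20 highest of each library 82.3% in both, and 6 families passed 50% in either library. By sequence, 15 and 17 of the 483 were needed for 50% of the reads, and 111 and 108 for 90%. The most abundant sequence alone made up 14.5% and 10.4%. In the heated libraries, the highest sequence of each library took 9.88 to 46.5%.

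miR894, a family named after a moss miRNA, and miR6300, named after a soybean miRNA, stood at the top. miR894 made up 16.9% of the listed reads in replicate 1 (exact Clopper-Pearson 95% interval 16.5 to 17.3%) and 12.8% in replicate 3 (12.5 to 13.0%). miR6300 made up 9.77% (9.46 to 10.1%) and 13.8% (13.6 to 14.1%). As listed, the order of these 2 families was reversed between the libraries, so their difference is within the spread between replicates. This reversal rests on miR6300 sequences of equal value, described below. With each set of equal value counted once, miR894 was the higher in both libraries, with 175525 and 133200 RPM, against 66796 and 102165 RPM for miR6300. Next came miR156, with 70952 and 77146 RPM, and miR396, with 61118 and 70593 RPM. miR168 followed with 59690 and 44726 RPM. The same 5 families led in both libraries.

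Below them, the ranges of neighbouring families mostly overlapped. miR166 had 36221 and 42973 RPM, miR9774 35942 and 40868, miR6478 44954 and 26441, and miR444 35035 and 35781 RPM. miR162 had 32329 and 26387 RPM and miR159 had 36502 and 20557 RPM. miR528 (22930 and 22592 RPM) and miR8175 (21280 and 22495 RPM) were close in both libraries, and the 7 families from miR4995 to miR535 averaged 20179 down to 11692 RPM. Of the 20 highest families, 17 were among the 20 highest of both libraries, and 1 (miR394) differed by more than 2-fold between them.

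**Figure D1:**
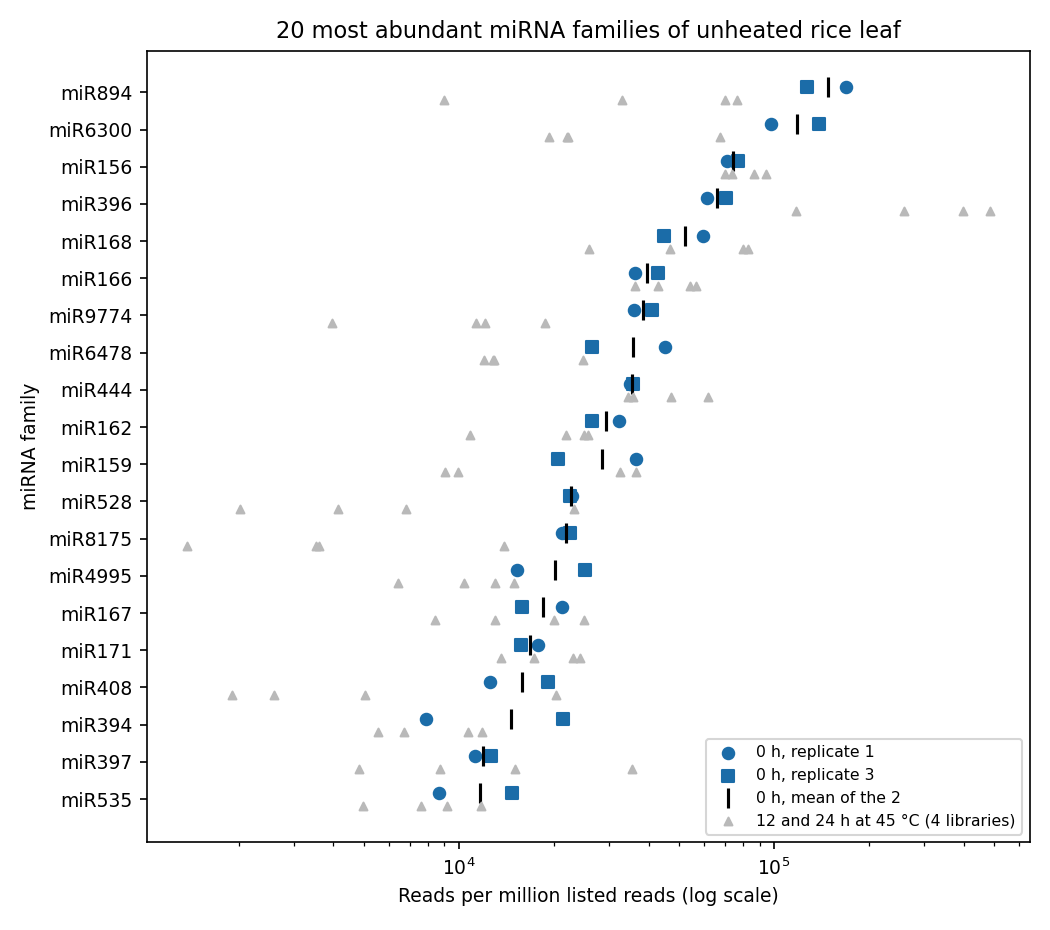
Levels of the 20 most abundant families of unheated leaf in RPM (log scale), 1 row per family. Blue circles are replicate 1 and blue squares replicate 3 of 0 h, black bars their mean, and grey triangles the 4 heated libraries; miR396 is the family whose heated libraries all lie far to the right (117353 to 483454 RPM, against 61118 and 70593 RPM at 0 h).

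Families that act on phase change and growth were abundant. miR156, which targets SPL transcription factors and holds plants in the juvenile phase, ranked 3rd by mean RPM. miR172, which acts later in phase change through AP2-like genes, had 1086 and 774 RPM and ranked 60th. miR535, close to miR156 in sequence, had 8655 and 14730 RPM, and miR529, another family that pairs with SPL transcripts, had 773 and 810 RPM. So the 4 phase transition families together held 8.15% and 9.35% of the listed reads, nearly all of it miR156 and miR535.

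The 6 families of leaf development held 15.8% and 15.97%, against 21.5 to 57.2% in the heated libraries. miR396, which targets growth-regulating factor (GRF) genes, was the highest of them. It had 61118 and 70593 RPM at 0 h, against 117353 to 483454 RPM in the heated libraries. In the edgeR family tests below, miR396 was the only one of the 6 that was called. The difference in the summed share thus does not describe these families as a group. miR166, which targets HD-ZIP III genes of leaf polarity, and miR159, which targets GAMYB-like genes, came next. miR171, which targets GRAS genes, had 17884 and 15800 RPM. miR164, which targets NAC genes, had 4233 and 8488 RPM, and miR319, which targets TCP genes, 1561 and 1283 RPM.

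The 2 families that act back on the small RNA machinery held 9.202% and 7.11% with only 7 sequences. miR168 targets AGO1, the main Argonaute, and miR162 targets DCL1, the Dicer-like enzyme that makes miRNAs. The copper families held 4.73% and 5.52%. Of these, miR528, which targets copper proteins in monocots, was the highest, and miR408 (12576 and 19240 RPM) and miR397 (11272 and 12618 RPM) followed. miR398, which targets copper/zinc superoxide dismutases, had a single listed sequence with 565 and 722 RPM.

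Auxin-related families held 3.16% and 3.33%. Most of that was miR167 (21222 and 15823 RPM) and miR160 (7676 and 12916 RPM), which target auxin response factors. miR393, which targets auxin receptors, had 996 and 2010 RPM, and miR390, which starts the tasiRNAs that act on auxin response factors, had 1755 and 2585 RPM. miR444, a monocot family that targets MADS-box genes, differed little between the libraries (3.50% and 3.58%). Its 16 sequences include 6 whose values repeat (see the sets of equal value described for miR6300).

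Among nutrient families only miR169, which targets NF-YA genes (8567 and 11185 RPM), and miR827, of the phosphate response (2082 and 1463 RPM), are in the list, and miR395, miR399 and miR2111 have no entry. The 3′ arm held 55.0% and 51.9% of the miR169 reads, and the most abundant miR169 sequence was the 3′ strand osa-MIR169a-p3. Families restricted to rice or monocots held 4.52% and 3.82%. The highest were miR1425 (9101 and 14154 RPM), miR1862 (9398 and 8701 RPM) and miR1876 (11748 and 5297 RPM). Of the families known to trigger phased small RNAs in panicles, miR2275 has no entry, and miR2118 had 1747 and 4636 RPM. An 18-nt sequence of the 5′ arm, osa-MIR2118e-p5_2ss12TA18CT, held 57.9% and 80.8% of the miR2118 reads, and the 3′ arm held 42.1% and 19.2%.

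miR894 and miR6300 are each made of nested sequences that share 1 end. These are shown because the families' rank rests on them. In miR894 the capitals mark the bases by which the longer sequence extends the shorter one at the 5′ end.
ppt-miR894_L-3R+1: ttcacgtcgggttcacca
ppt-miR894_R+1: CGTttcacgtcgggttcacca
In miR6300, 14 of the 17 sequences begin with the same 18 bases, and the capitals mark what is added at the 3′ end. The shortest, 3 further steps and the longest are given.
gma-miR6300: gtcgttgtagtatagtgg
gma-miR6300_R+1: gtcgttgtagtatagtggT
gma-miR6300_R+4: gtcgttgtagtatagtggTGAG
gma-miR6300_R+5_4: gtcgttgtagtatagtggTGAGT
gma-miR6300_R+7: gtcgttgtagtatagtggTGAGTAT
The shorter form of miR894 had 24447 and 23275 RPM, against 144988 and 104231 RPM for the longer one, so the longer form was several times higher in both libraries. Along the miR6300 ladder the levels did not follow length. The shortest sequence had 3569 and 14559 RPM, the 22-nt one 19272 and 22285 RPM, and the 25-nt one 18440 and 27192 RPM. Levels of the shortest form differed about 4-fold between the libraries, while those of the 22-nt form were close.

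Some of the miR6300 sequences had equal values. gma-miR6300_R+5_1 to gma-miR6300_R+5_4 differ in their added bases, yet each of the 4 has 267 reads in replicate 1 and 1012 in replicate 3, and the same holds in all 6 libraries. Their endings are shown with the added bases in capitals.
gma-miR6300_R+5_1: gtcgttgtagtatagtggTAAGT
gma-miR6300_R+5_2: gtcgttgtagtatagtggTGAGC
gma-miR6300_R+5_3: gtcgttgtagtatagtggTGAGG
The list holds 10 such sets of equal value with 24 sequences in all, whose names differ only in a final number. The 14 surplus entries amount to 3.47% and 4.27% of the listed reads at 0 h, against 0.768 to 2.51% in the heated libraries. With each set counted once, miR6300 had 66796 and 102165 RPM and kept the 2nd rank. Values of single members of these sets are therefore given as those of the set, and the sources used here do not say how the authors' pipeline set them.

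Nested sequences were found in part of other abundant families with names from other plants. In miR8175, 4 of 5 sequences end in the same 18 bases, and the longest, ath-miR8175_L+3_1ss5AT, had 15436 and 14447 RPM. In miR9774, 3 of 10 sequences share their 3′ end, and the longest, the 23-nt tae-miR9774_L+2R-1_1ss22GT, had 19644 and 19744 RPM. miR4995 is not nested and had a single sequence of 25 nt with 15287 and 25070 RPM. The lead held 72.5% and 64.2% of miR8175 and 54.7% and 48.3% of miR9774 (replicates 1 and 3).

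A shifted 5′ end changes the seed, and the reads of miR156 were split over shifted seeds. The miR156 sequences below share their 3′ end, and the capitals mark bases added at the 5′ end.
osa-miR156a: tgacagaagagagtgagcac
osa-miR156a_L+1: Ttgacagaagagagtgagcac
ssp-miR156_L+2R-1: CTtgacagaagagagtgagcac
mes-miR156a_L+4: ATCTtgacagaagagagtgagcac
osa-miR156a_L+1, with 1 added base, had 33560 and 38535 RPM, against 9847 and 11274 RPM for the 20-nt osa-miR156a. The 2 longer forms had 1522 to 2825 RPM. As a result, the seed TGACAGA held 3.63% and the seed GACAGAA 1.22% of the listed reads (means of both libraries). In miR396, osa-miR396e-5p and osa-miR396c-5p also have different seeds, but they differ in their inner bases and 3′ end as well. There the seed CCACAGG held 43660 and 59451 RPM, and the seed TCCACAG held 14722 and 9496 RPM.

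Reads of 21 nt made up a majority at 0 h, with 55.0% and 53.8% (replicates 1 and 3), although only 37.9% of the listed sequences have that length. Sequences of 24 nt, which are 30.0% of the list, held 13.4% and 8.51% of the reads. Shares of 23 nt (9.17% and 9.46%) and 22 nt (8.84% and 8.59%) differed little between the libraries. Those of 18 nt were 4.59% and 6.44%, of 20 nt 4.13% and 6.13%, and of 25 nt 4.19% and 5.66%. Gels were cut at 15 to 30 nt, and no listed sequence is shorter than 18 or longer than 25 nt.

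Some families led several length classes, miR6300 at 19, 22 and 25 nt and miR894 at 18 and 21 nt. osa-miR168a-3p (42560 and 24075 RPM) led the 24-nt class with 31.7% and 28.3% of its reads, followed by osa-miR1876 and osa-miR1862d. tae-miR9774_L+2R-1_1ss22GT led the 23-nt class with 21.4% and 20.9%. ath-miR8175_L+3_1ss5AT and ptc-miR6478_R+2_1ss21GA (11867 and 6824 RPM) stood next in that class. osa-miR394, which targets an F-box gene and had 7495 and 20563 RPM, led the 20-nt class by its mean, before osa-miR156a (9847 and 11274 RPM), which was higher in replicate 1, and the set of gma-miR6300_R+2_1 (6469 and 8848 RPM). Among 22-nt sequences gma-miR6300_R+4 was followed by tae-miR9774_L+1R-1_1ss21GT (10960 and 12516 RPM) and osa-miR167d-5p_R+1 (11655 and 7107 RPM). The 25-nt class held gma-miR6300_R+7, gma-miR4995_L+1R+3 and ptc-miR6478_R+4_1ss21GA (5948 and 1814 RPM), and the last of these differed most between the libraries. At 18 nt, ppt-miR894_L-3R+1 was followed by gma-miR6300 and cpa-miR8155_L-1 (4402 and 2970 RPM). The 19-nt class was small and led by gma-miR6300_R+1 (4818 and 9618 RPM), with peu-MIR2916-p3_2ss3TC18CA (357 and 1219 RPM) and gma-MIR5368-p3_1ss4GA (253 and 1258 RPM) far below it. Sequences of the conserved class held 94.8% and 95.6% of the 25-nt reads and 89.1% and 85.9% of the 18-nt reads, but 32.9% and 25.1% of the 21-nt reads.

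T was the first base in 47.1% and 52.2% of the reads at 0 h, C in 22.5% and 16.7%, G in 18.7% and 21.1%, and A in 11.7% and 10.1%. Plant AGO1 is known to prefer a 5′ U (T here), and some other Argonautes a 5′ A. Within 24-nt reads the first base was A in 52.7% and 53.7% and G in 43.6% and 41.9%, where osa-miR168a-3p begins with G. Within 21-nt reads it was T in 61.4% and 68.1% and C in 34.9% and 27.7%. The single sequence ppt-miR894_R+1, which begins with C, held 26.4% and 19.4% of all 21-nt reads.

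The deposited tables split the sequences into known rice miRNAs (289), conserved miRNAs named after other plants (118) and new candidates (73), and 3 sequences are in none of the tables used here. Known miRNAs held 55.7% and 55.8% of the listed reads at 0 h, conserved ones 42.0% and 41.9%, and new candidates 1.43% and 1.30%. The shares of the 2 libraries thus hardly differed. In the heated libraries the conserved class held 7.0 to 23.2%, so the 2 ranges did not overlap.

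**Figure D2:**
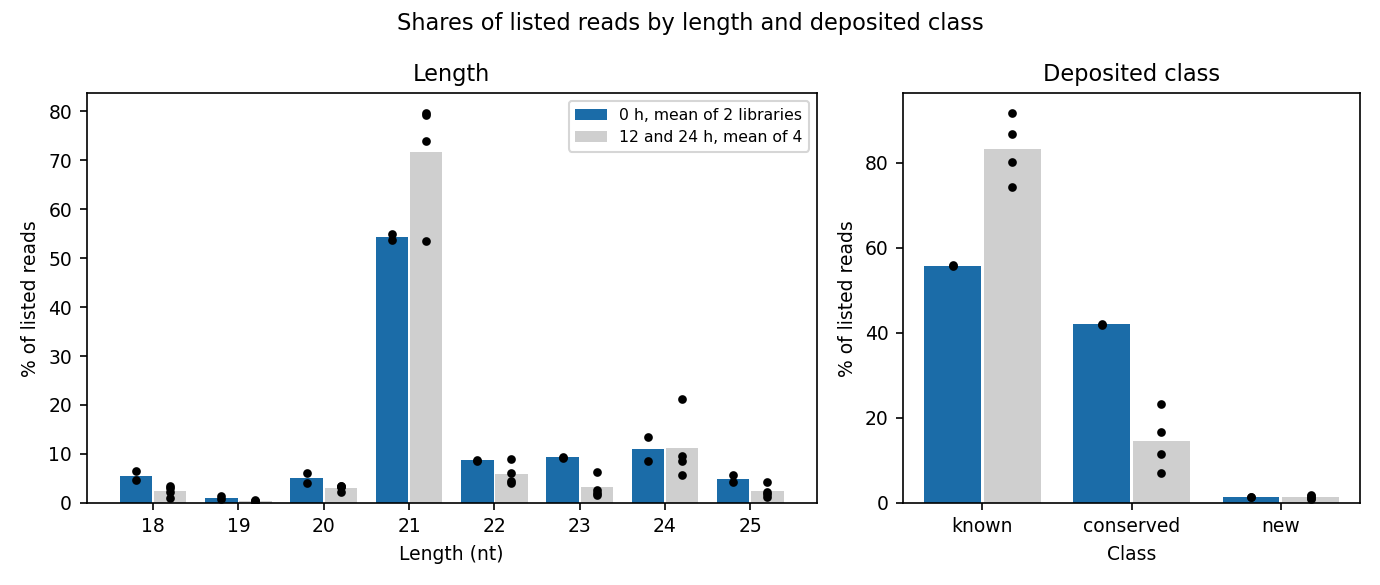
Shares of the listed reads (%) by sequence length in nt (left) and by deposited class (right). Blue bars are means of the 2 libraries of 0 h, grey bars means of the 4 heated libraries, and points single libraries; the conserved class stands at 42.0% and 41.9% at 0 h, above all 4 heated libraries.

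Precursors differed between these classes. Of the 118 conserved sequences, 20 have no position in the deposited table and 72 others have a position whose hairpin prediction the authors marked as failed. At 0 h the sequences with no position held 46.2% and 38.9% of the conserved reads, those with a failed prediction 49.8% and 56.9%, and the 26 with a predicted hairpin 4.05% and 4.22%. Among known miRNAs, 3 sequences have no position. The median of the deposited MFEI, a score of folding energy set against length and GC content, was 1.0 for known, 0.6 for conserved and 1.2 for new precursors.

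The bases CCA at the 3′ end, which also end mature tRNAs, were found in 30 sequences. These held 21.4% and 17.9% of the listed reads at 0 h, against 3.83 to 10.3% in the heated libraries. Of the conserved reads at 0 h, 48.2% and 38.8% had this end, against 2.03% and 2.91% of the known ones. Both miR894 sequences end so, as do all 5 of miR8175, but osa-miR160f-5p, a known rice miRNA with 4788 and 8076 RPM, does as well. The authors' deposited table of read classes gives tRNA as 1.46% and rRNA as 5.13% of all reads at 0 h, against 0.769% and 0.984% for tRNA and 3.01% and 4.40% for rRNA at 12 and 24 h. Whether fragments of these RNAs contribute to the conserved class was not tested.

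New candidates were rare. The 3 highest were PC-3p-53246_81 (848 and 1180 RPM), PC-5p-47273_96 (476 and 927 RPM) and PC-5p-195376_8 (446 and 683 RPM). Their sequences are shown because they come from 1 short stretch of the genome, with the seed in capitals.
PC-3p-53246_81: aTAGAAATagaaagaatagaaaga
PC-5p-47273_96: tTTTTCTAccacactttaga
PC-5p-195376_8: gAATAGAAatagaaagaatagaaaa
The first and the third share a listed precursor on chromosome 10 from 10824381 to 10824643 (plus strand). That of the other lies on the same strand from 10823988 to 10824173. The first and the third also have most of their bases in common, in an unbroken run, although their names give opposite arms. Of the new candidates, 15 of 73 had at least 10 reads in both libraries, against 145 of 289 known and 69 of 118 conserved sequences.

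The 5′ arm held 52.3% and 54.0% of the listed reads at 0 h and the 3′ arm 36.8% and 33.3%. Another 9.94% and 11.7% fell on 17 sequences that the deposited tables assign to both arms. Arm and name were at odds in 1 of the 326 sequences whose name states an arm. Strands named only as the opposite side of a known precursor were numerous (159 sequences) but held 8.36% and 8.72% of the reads.

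The leading arm was the same in both libraries in nearly all families. Of the 49 families with both arms listed and at least 100 reads, 26 had more reads on the 5′ arm in both libraries, 21 had more on the 3′ arm in both, and 2 (miR319 and miR1860) differed. The minor arm held a median of 18.6% of a family's reads. It was under 10% in 15 families and over 25% in 18. In miR444, miR9774 and miR6300 much of the family lies in sequences listed on both arms, so their arm shares describe the remainder. For miR6300 even the remainder is no split of strands. Sequences with the same first 18 bases are listed on the 5′ arm (gma-miR6300_R+4), the 3′ arm (gma-miR6300_R+5_1) or both (gma-miR6300_R+7). The family is still counted among the 21, and its 9.77% and 13.8% of the listed reads enter the arm shares above.

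Guide strands led clearly in many abundant families. miR162 had 99.6% of its reads on the 3′ arm, miR171 98.0%, miR408 96.0% and miR166 91.9% (means of both libraries). miR396 had 96.6% on the 5′ arm, miR535 99.1% and miR528 89.6%. By contrast, in miR168 the 3′ arm held 71.3% and 53.8% (replicates 1 and 3). osa-miR168a-3p had 42560 and 24075 RPM, against 17131 and 20651 RPM for osa-miR168a-5p, the strand known to pair with AGO1. In miR397 the 5′ arm, which targets laccases, held 54.8%, and the most abundant sequence was the 3′ strand osa-MIR397b-p3 (4848 and 5989 RPM). miR156 had 28.8% on its 3′ arm.

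**Figure D3:**
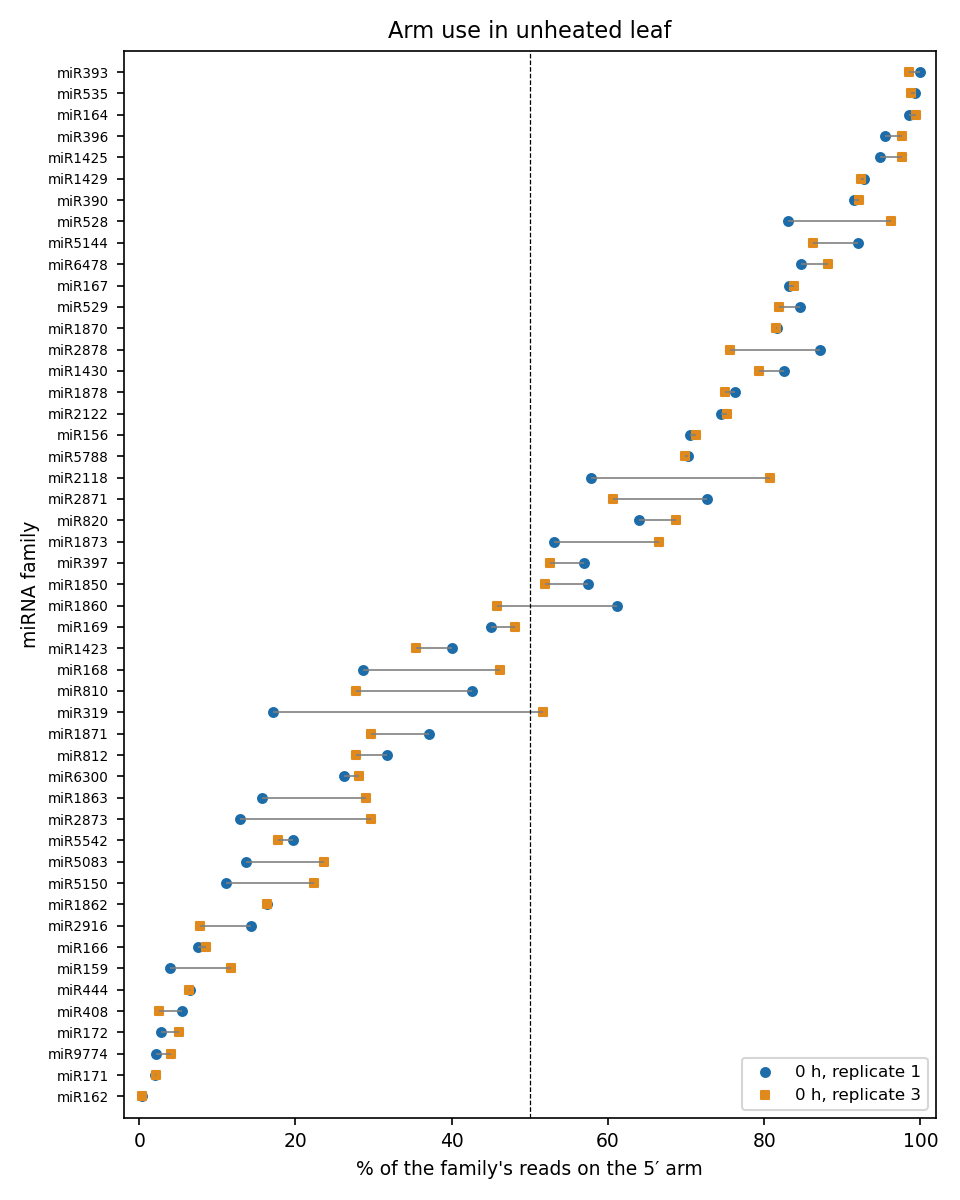
Share of each family's reads on the 5′ arm (%) in the 2 libraries of 0 h (blue circles replicate 1, orange squares replicate 3), with 1 row for each of the 49 families with both arms listed and at least 100 reads. The dashed line marks 50%; miR319 and miR1860 are the families with a library on each side of it.

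IsomiR names carried a majority of the reads. Sequences with a suffix held 55.2% and 53.1% of the listed reads at 0 h, sequences with none 43.3% and 45.6%, and new candidates the rest. By kind, changes at the 3′ end only held 26.5% and 24.6%, changes at the 5′ end only 5.33% and 5.74%, and changes at both ends 5.98% and 6.37%. Substitutions only held 8.13% and 8.04%, and substitutions with an end change 9.33% and 8.37%. Longer 3′ ends (34.5% and 31.9%) far exceeded shorter ones (5.07% and 5.08%).

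These shares depend on how a sequence was named. In the conserved class, where the reference entry is that of another plant, 98.7% and 95.9% of the reads had a suffix, and 109 of its 118 sequences carry one. Among known rice miRNAs the share was 24.7% and 23.1%, from 112 of 289 sequences. ppt-miR894_R+1, named with 1 added 3′ base, alone made up 14.5% and 10.4% of the listed reads, a large part of the 26.5% and 24.6% with a change at the 3′ end only.

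Across sequences with at least 10 reads in both unheated libraries (231), log2 levels correlated with Pearson's r = 0.92 and Spearman's rho = 0.87. These are descriptions across sequences that share a library, with no test. The median difference was 0.56 on the log2 scale, and 45 sequences (19.5%) differed by more than 2-fold. Of the 50 highest sequences of each library, 44 were shared. The 24-nt sequences leaned to 1 side, with 47 of 56 higher in replicate 1 and 9 in replicate 3, whereas 21-nt sequences divided as 48 and 42.

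Families with at least 100 reads over both libraries (69) were compared by the ratio of replicate 1 to replicate 3. The exact 95% interval of the ratio, which covers counting error only, held 1 in 17 families, lay above 1 in 25 and below 1 in 27. The largest ratios were those of miR1863 (7197 and 2653 RPM, a ratio of 2.71, interval 2.27 to 3.24), miR2873 (2.42), miR5150 (2.30), miR1878 (2.29) and miR1876 (2.22). The smallest were those of miR2606 (297 and 1966 RPM, a ratio of 0.151, interval 0.0713 to 0.283), miR1320 (0.323), miR3630 (0.335), miR394 (0.367) and miR2118 (0.379). The leading sequences of the 5 families with the largest ratios are all 24 nt long.

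**Figure D4:**
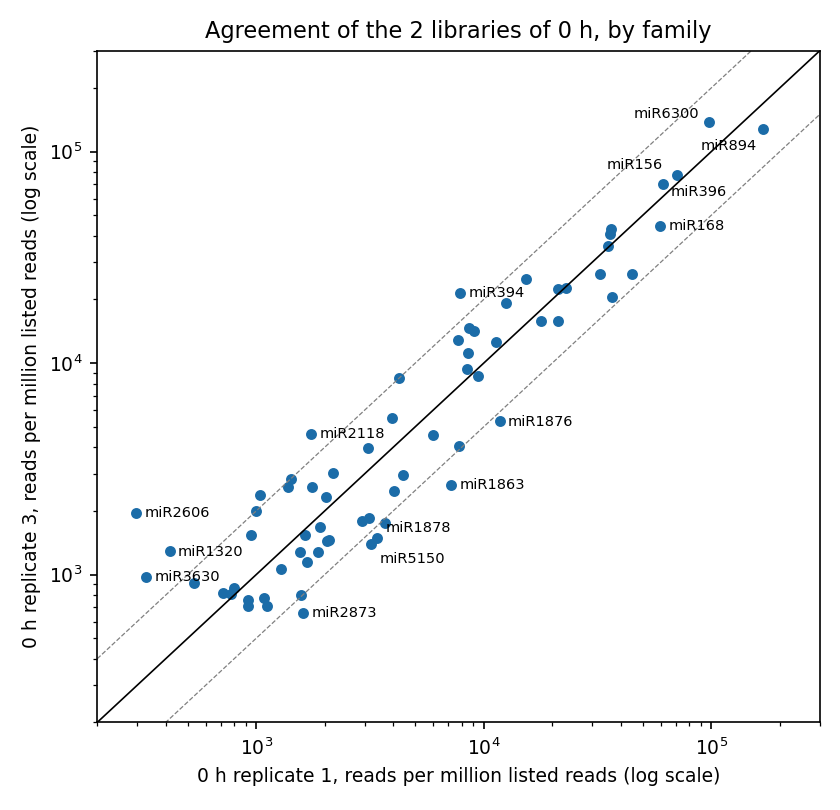
Levels in RPM (log scales) of the 69 families with at least 100 reads over both libraries of 0 h, replicate 1 on the x axis and replicate 3 on the y axis. The solid line marks equal levels and the dashed lines 2-fold differences; miR394, at 7867 and 21397 RPM, is the only one of the 20 highest families outside them.

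The unheated leaf was then set against the 4 heated libraries. Levels in this comparison are in CPM, which edgeR computed from TMM-scaled library sizes, and log2 changes are 0 h minus the mean of 12 h and 24 h. edgeR's quasi-likelihood test with Benjamini-Hochberg adjustment over all features tested called 12 of 124 families higher at 0 h (9.68%) and 2 lower (1.61%). By sequence it called 45 of 459 higher at 0 h (9.8%) and 9 lower (1.96%). At 0 h the libraries number 2, so these calls lean on the spread shared over all 6 libraries. Without 0 h replicate 3 the sequence counts were 7 higher and 0 lower (48 at an unadjusted p under 0.05, edgeR), without 0 h replicate 1 they were 17 and 2, and without 12 h replicate 1 they were 24 and 7.

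Of the 20 highest families at 0 h, 4 were called higher and 1 lower. The 4 carry names from other plants. miR894 had 159042 and 122446 CPM at 0 h, against 12122 to 62092 CPM in the heated libraries, and was higher by 1.79 ± 0.39 (log2, SE, adjusted p = 0.00430, edgeR). miR6300 was higher by 1.81 ± 0.41 (adjusted p = 0.00438, edgeR), miR8175 by 2.11 ± 0.61 (0.0282) and miR9774 by 1.69 ± 0.50 (0.0300). In all 4 the unheated and heated libraries did not overlap. The 20 families were chosen by their level at 0 h, which enters this change, so nothing is read from their count or from their median log2 change of 0.44, beside -0.10 over all 124.

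miR396 was the abundant family that was lower in unheated leaf. It had 57369 and 67794 CPM at 0 h, against 210109 and 98308 CPM at 12 h and 654574 and 517226 CPM at 24 h. Its log2 change was -2.26 ± 0.30 (adjusted p = 2.70e-05, edgeR). The lowest heated library was still above both unheated ones. The other lower family was miR393, with 949 and 1930 CPM at 0 h, against 3087 to 14482 CPM in the heated libraries (-2.46 ± 0.74, adjusted p = 0.0300, edgeR).

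The largest family changes were of families with few reads. miR5073 had 893 and 1480 CPM at 0 h, against 22.1 to 162 CPM in the heated libraries (log2 change 4.88 ± 0.68, adjusted p = 2.70e-05, edgeR). Its heated libraries held only 2 to 7 reads each. miR2606 had 279 and 1892 CPM at 0 h, against 11.1 to 162 CPM (4.61 ± 0.84, adjusted p = 0.000787). The 2 libraries of 0 h were unlike for it. miR1850, restricted to rice, had 3462 and 1677 CPM at 0 h, against 162 to 386 CPM (3.14 ± 0.61, adjusted p = 0.00130). For miR5073, miR2606 and miR1850 alike, the 162 CPM stands for 2 reads of 12 h replicate 3, under the floor of 3 reads. The others were miR8155 (2.87), miR5139 (2.79), miR3979 (2.36), miR3630 (2.12) and miR2106 (2.10), with adjusted p between 0.00716 and 0.0344 in the same test. The heated range of miR5139 and of miR3630 overlapped that of 0 h.

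With 1 library left out in turn, the call of miR396 was kept all 6 times, and that of miR5073 in the 4 fits that tested it. Leaving out 0 h replicate 3 ended the calls of miR2606 and miR6300, and leaving out 0 h replicate 1 those of miR1850, miR8155 and miR5139. The calls of miR894, miR3979 and miR393 were lost without either 0 h library, and those of miR8175, miR9774, miR3630 and miR2106 without either of them or without either of 2 heated libraries (12 h replicate 1 and 24 h replicate 1, but for miR9774 12 h replicate 3 and 24 h replicate 1). That of miR9774 was also lost with totals that omit the 3 most abundant sequences. In total, 2 families were higher and 1 lower without 0 h replicate 1, and 3 were higher and 1 lower without 0 h replicate 3. Without 12 h replicate 1, 10 were higher and 4 lower.

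**Figure D5:**
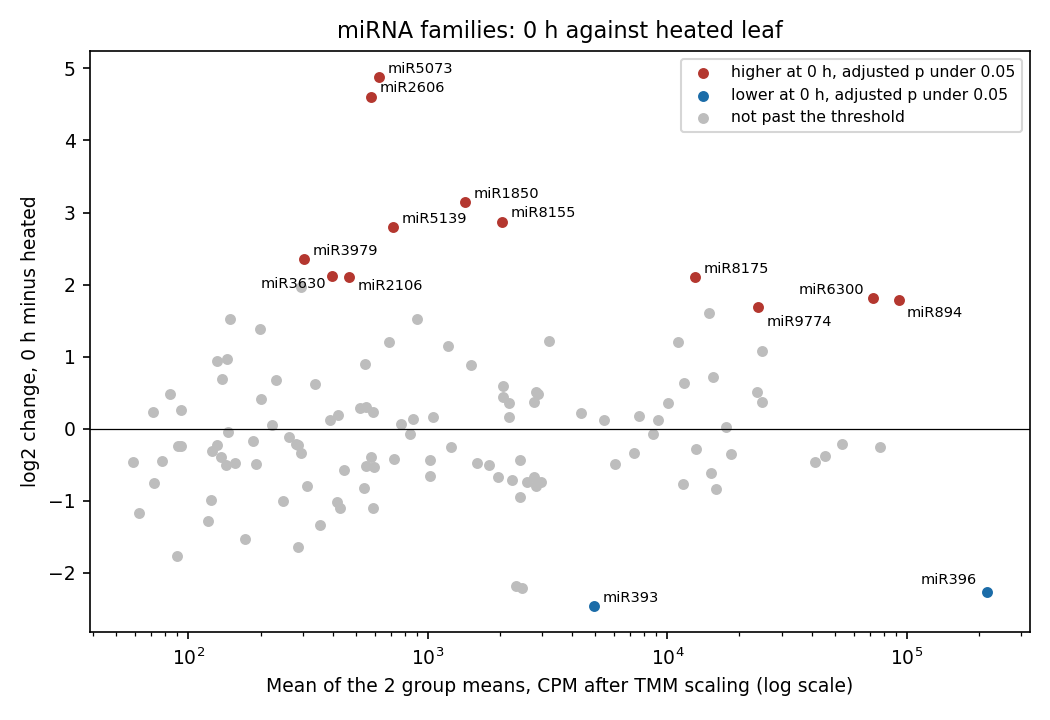
log2 change of the 124 tested families, 0 h minus heated, against the mean of the 2 group means in CPM (log scale). Red points are the 12 families called higher at 0 h, blue points the 2 called lower, and grey points the rest.

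The sequence tests named some strands that the families hide. osa-miR528-3p, the minor strand of miR528, had 3416 and 821 CPM at 0 h, against 108 to 259 CPM in the heated libraries (log2 change 3.48 ± 0.61, adjusted p = 2.67e-06, edgeR). Its partner osa-miR528-5p had 1.52 ± 0.60 and did not pass (adjusted p = 0.0777). osa-miR166d-5p, a minor strand of miR166, had 678 and 1212 CPM at 0 h, against 64.8 to 188 CPM (2.97 ± 0.65, adjusted p = 0.000322), and osa-miR166a-5p 2.42 ± 0.64 (0.00356). The abundant osa-miR166a-3p had -0.28 ± 0.64 (0.833). The call of osa-miR528-3p was lost without 0 h replicate 1, and that of osa-miR166d-5p without 0 h replicate 3. The difference between the strands was not tested.

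Other named sequences higher at 0 h were osa-miR5073_R+1_1ss20AT (log2 change 4.79), mtr-MIR2606c-p3_2ss8TG18GA (4.56), gma-MIR6300-p3_1ss8AG (3.08), osa-MIR1850-p5_1ss18CT (3.01) and rgl-miR5139_L+3 (2.95). cpa-miR8155_L-1 (2.91), ath-miR8175_L+3_1ss5AT (2.84) and osa-miR1850.1 (2.76) belong to them as well. The heated range of gma-MIR6300-p3_1ss8AG and of rgl-miR5139_L+3 overlapped that of 0 h. Only cpa-miR8155_L-1 and ath-miR8175_L+3_1ss5AT of these 8 kept their calls in all 6 fits without 1 library, while osa-miR5073_R+1_1ss20AT kept it in the 4 that tested it. mtr-MIR2606c-p3_2ss8TG18GA and gma-MIR6300-p3_1ss8AG lost it without 0 h replicate 3, and osa-MIR1850-p5_1ss18CT and rgl-miR5139_L+3 without 0 h replicate 1. osa-miR1850.1 lost it without either, or without 12 h replicate 1.

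Among the 10 most abundant sequences at 0 h, ppt-miR894_R+1 was higher (127139 and 102006 CPM at 0 h, against 7282 to 53702 CPM heated, log2 change 2.11 ± 0.64, adjusted p = 0.0155, edgeR), as were gma-miR6300_R+4 (2.31 ± 0.59) and gma-miR6300_R+7 (1.79 ± 0.60). The shorter ppt-miR894_L-3R+1 had 0.78 ± 0.61 and did not pass (adjusted p = 0.512). osa-miR396e-5p was lower, with 38285 and 58177 CPM at 0 h, against 66144 to 668029 CPM heated (-2.54 ± 0.82, adjusted p = 0.0229). The calls of ppt-miR894_R+1 and osa-miR396e-5p were lost without either 0 h library, and that of ppt-miR894_R+1 also without 24 h replicate 1. That of gma-miR6300_R+4 was lost without 0 h replicate 3, and that of gma-miR6300_R+7 was lost without each library other than 12 h replicate 3, and also with totals that omit the 3 most abundant sequences and with the minimum of 20 reads.

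osa-miR393a (887 and 1938 CPM at 0 h, against 2334 to 15045 CPM heated), osa-miR172a (730 and 621 CPM, against 1297 to 5069 CPM) and osa-MIR529a-p5 (522 and 516 CPM, against 426 to 10567 CPM) were also lower at 0 h, by -2.53 ± 0.70, -2.51 ± 0.71 and -2.40 ± 0.71 on the log2 scale. The adjusted p was between 0.00692 and 0.0127 in the same test. The range of osa-MIR529a-p5 overlapped, and 24 h replicate 1 held most of its reads. Each of the 3 calls was lost without 0 h replicate 1 and without 0 h replicate 3, and that of osa-MIR529a-p5 also without 12 h replicate 3 and without 24 h replicate 1, where its log2 change was -0.62. By DESeq2, with plain listed totals and with totals that omit the 3 most abundant sequences it was not called either. osa-miR396d, a near copy of osa-miR396e-5p, had 1.5 reads at 0 h, against 194.5 in the heated libraries, a heated-to-unheated ratio of 35.0 (exact 95% interval 7.15 to 218, counting error only). 12 h replicate 3 had 0.5 reads, so the groups overlapped. Its log2 change was -5.57 ± 1.15 (adjusted p = 0.000138, edgeR), but -8.16 without 0 h replicate 3 and -2.01 without 12 h replicate 1, and both ended the call. A miR393 sequence picked for its values, ghr-miR393_L+3R-1, had 0 reads in both unheated libraries. Its level was therefore at least 4.09-fold lower in unheated than in heated leaf, with the floor of 3 reads taken over the group.

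Counts by list stood as follows, beside 9.8% higher and 1.96% lower over all sequences. The lists were chosen with earlier results known, so their counts describe and are not tested. Of 10 copper sequences 3 were higher (osa-miR408-5p_L+1R-1 and gma-miR408a-3p_L-1R+3 of miR408, and osa-miR528-3p) and 0 lower, with a median log2 change of 1.38, against -0.00 over all sequences. Of 55 sequences of leaf development 4 were higher and 2 lower. Of 23 auxin sequences 1 was higher and 2 lower, with a median of -0.76, and of 19 nutrient sequences 2 were higher and 1 lower, with a median of -0.92. DESeq2 called 30 higher and 6 lower over all sequences. For copper it called 2 higher and 0 lower, and for leaf development 4 and 3. For auxin the DESeq2 counts were 0 higher and 1 lower, and for nutrient 1 and 0. Phase transition had 2 lower and 0 higher among 28. It also had 2 lower and 0 higher at an unadjusted p under 0.05 (edgeR), and 1 lower and 0 higher by DESeq2. miR444 had 1 lower and 0 higher of 16, again with 0 higher at an unadjusted p under 0.05 and 0 by DESeq2, and with sets of equal value counted once it had 0 calls of 12.

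Of 21 rice or monocot sequences 3 were higher, all of miR1850, and 0 lower by edgeR, with 1 lower at an unadjusted p under 0.05. By DESeq2, 2 were higher and 0 lower. The 7 of small RNA machinery and the 3 panicle triggers had 0 calls by edgeR and by DESeq2, and 0 at an unadjusted p under 0.05. By deposited class, 29 of 116 conserved sequences were higher (25.0%) and 2 lower, against 16 of 275 known ones higher (5.82%) and 7 lower. By DESeq2, 21 conserved sequences were higher and 0 lower, against 9 known ones higher and 6 lower. None of 65 new candidates was called by edgeR or DESeq2, with 4 at an unadjusted p under 0.05. miR6300 supplied 14 of the 29 conserved calls, which became 9 of 11 miR6300 entries with each set of equal value counted once. Of 30 sequences ending in CCA 9 were higher and 0 lower by edgeR, with 1 lower at an unadjusted p under 0.05. By DESeq2, 6 of them were higher and 0 lower.

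Shares of read classes were compared over samples as well. In 25 of the 37 classes (67.6%) the 2 unheated libraries lay outside the range of the 4 heated ones, but many of these classes overlap in their sequences. With 2 against 4 libraries the smallest p that the 2-sided exact permutation test can give is 0.133, which these 25 reached, and the smallest adjusted p was 0.197, so no class could pass. First-base T was at 47.1% and 52.2%, below the heated libraries (53.8 to 83.4%), and first-base C at 22.5% and 16.7%, above them (2.71 to 12.1%). The shares of a library are tied to each other, and miR396, whose most abundant sequence begins with T, enters them. It had 61118 and 70593 RPM at 0 h, against 117353 to 483454 RPM heated. Shares without miR396 were not computed. Reads of 21 nt overlapped (53.6 to 79.7% heated), as did those of 24 nt (5.70 to 21.1% heated).

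The degradome of 0 h, a single library of 12554074 raw reads, adds a readout that did not enter the miRNA levels. The deposited tables give a category to each predicted site, and category 0 is used for a site that holds the highest signal of its transcript. Among the 20 highest families at 0 h, 11 had at least 1 category 0 site, against 9 of the other 112 families. Of the 50 most abundant sequences 18 had such a site (36.0%), against 47 of the other 433 (10.9%). The 9 without one were miR894, miR6300, miR168, miR9774, miR6478, miR8175, miR4995, miR167 and miR535. Of these, miR894, miR6300, miR9774, miR6478, miR8175 and miR4995 were listed in the conserved class alone. There is no replicate, so these counts carry no test.

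The 3 families with the highest reads at a site, miR408, miR160 and miR528, ranked 17th, 22nd and 12th of 132 by level. osa-miR408-3p had 1032 reads at position 668 of LOC_Os08g37670.1, a cupredoxin. osa-miR160a-5p had 892 reads at position 2053 of LOC_Os06g47150.1, annotated as auxin response factor 16. osa-miR528-5p had 505 reads at position 538 of LOC_Os07g38290.1, also a cupredoxin. For the far more abundant miR396 and miR156 the highest category 0 sites had few reads, with 18 at position 581 of LOC_Os02g53690.1, growth-regulating factor 5, and 4 at position 864 of LOC_Os06g45310.1, squamosa promoter-like 11. So the number of degradome reads at a site did not follow the order of the miRNA levels.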

How the data were processed

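Small RNA libraries were made with an Illumina TruSeq kit from gel-cut RNA and sequenced on a Genome Analyzer II, per the labels' protocols. The authors deposited estimated counts per mature sequence (raw read values, 73.1% and 72.0% of them whole within 1e-06 at 0 h), and a normalized signal equal to these values times 1 constant per library (1.80 and 0.753 at 0 h). They also deposited the percent of all reads in each read class per time point, the raw read count at each degradome site, and scores (MFEI, site category, alignment score). Mapper, genome build, miRNA database release and library totals have no mention in the sources used here. Labels call the samples independent, so p-values measure the spread between these samples.

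Of 588 entries, 483 distinct sequences were used once each. RPM are estimated counts per 1000000 listed reads of a library. Degradome sites were taken from the 0 h columns as deposited. The members, lists and rules were chosen with earlier results of these data known.

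Estimated counts were rounded to whole numbers for edgeR 4.0.16 (R 4.3.3), whose quasi-likelihood test was fitted over all 6 libraries with TMM and with the time point as factor. The design had foreseen raw read values. Tested were features that reached 10 reads in 2 or more libraries, with a threshold of 0.05 on the Benjamini-Hochberg adjusted p. Each SE was derived from the log2 change and its F statistic. For sequences edgeR estimated infinite prior degrees of freedom, so the SE and the p-value rest on the spread shared over sequences. Scripts were tested on simulated data. Read classes were compared by an exact permutation test (scipy 1.17.1). Alternatives were DESeq2 1.42.0, other scalings and filters, the replicate number as a block, each library left out and, chosen after seeing the data, sets of equal value counted once.

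Named were the 20 highest families, the leading sequence of the 10 highest, the 10 most abundant sequences, and the 3 highest of each length class, of the conserved and of the new class. For 0 h against heated, the 10 families and 10 sequences of each direction with the largest change past the threshold and at least 100 reads were named, and between the 0 h libraries the 5 families of each direction with the largest ratio. Members of the lists were named with their levels. ghr-miR393_L+3R-1, osa-miR160f-5p, osa-MIR397b-p3, partner strands, called copper sequences and the sequences of shifted ends lie outside this rule and were chosen after their values were seen.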

Additional observations from a re-analysis of the deposited data

How the results depend on the processing

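Levels at 0 h (means of both libraries) moved by more than their SD under a few settings. With every listed entry kept, 21-nt reads were 58.1% in place of 54.4%, first-base T 60.2% (49.6%), the 5′ arm 51.1% (53.2%), the conserved class 34.7% (42.0%), isomiR suffixes 51.2% (54.2%) and miR894 9.29% (14.8%). Without sequences ending in CCA, 21-nt reads were 50.6%, first-base T 54.1%, the 5′ arm 45.8%, the conserved class 29.5% and isomiR suffixes 44.1%. With sets of equal value counted once they were 56.3% for 21 nt, 55.2% for the 5′ arm, 39.7% for the conserved class, 52.5% for suffixes and 8.45% for miR6300 (11.8%). Rounding and the removal of sequences under 10 reads moved none of these. The authors' normalized values and the pooling of both libraries could not move them. The normalized values are the raw ones times a constant per library, which leaves shares unchanged. A pooled share lies between those of the libraries, and so always within the SD of their mean.

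Sequences higher at 0 h numbered 23 in place of 45 when the 3 most abundant sequences were left out of the totals, and 29 with at least 20 reads in 2 libraries. That scaling shifted the median of all sequences to -0.17, and plain listed totals to 0.19, from -0.00. With the replicate block 23 sequences were higher and 3 lower, and 13 families higher and 1 lower. Only 2 replicate numbers exist, and replicate differences correlated with r = -0.12, 0.15 and -0.22 between time points. With 1 difference per time point, these values cannot show whether libraries of the same number share more than that number. The block ended the calls of miR393 and, by sequence, of ppt-miR894_R+1, gma-miR6300_R+7, osa-miR396e-5p, osa-miR393a and osa-MIR529a-p5. No other family or sequence named by the rule for this comparison lost its call. Called sequences named outside that rule, such as osa-miR166a-5p, are not covered by this statement. With 1 library left out, sequences higher at 0 h ranged from 7 to 50 and lower from 0 to 13, and families from 2 to 15 and 1 to 4. The 7 and 0 were without 0 h replicate 3 (48 sequences at an unadjusted p under 0.05, edgeR), 17 and 2 without 0 h replicate 1, and 24 higher without 12 h replicate 1. Fits with 1 library of 0 h assume that it varies like the other groups. Among the changes named by the rule, none reversed in direction. Of their tests under alternatives, 69 lost their call and 397 kept it. Replicate 1 of 0 h, with 33623 listed reads, limits low levels. The cause of each move was not tested.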
